A study of Homo sapiens with 12 samples.

Results

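The comparison described here is that of AC16 cells 5 days after a single pulse of interferon with vehicle-treated AC16 cells. It rests on 6 of the 12 libraries of the series, the 3 labelled as recovery and the 3 labelled as vehicle, and on every gene that could be tested in them. AC16 is a human cell line derived by fusing adult ventricular heart cells with SV40-transformed fibroblasts, and the labels give it as cardiomyocyte, wild type and from a single batch. The agent was recombinant human interferon alpha-2a, of the type I class, at 1000 U/mL. Recovery cells were given it for 24 h, were then held for 5 days without it, and were harvested on day 6. Vehicle cells were given saline (PBS) and are labelled 24 h, although the treatment protocol speaks of matching intervals. The labelled time in culture therefore goes with the group, and an effect of past interferon cannot be told apart from one of time. Acute cells, taken directly after 24 h of interferon, and repeat cells, exposed for 24 h, left for 4 days and exposed for 24 h more (harvest labelled day 7), entered the same fit (3 libraries each). Their values are given only beside those of recovery, and each of these comparisons shares the vehicle libraries. The cells of every group were wild type, and the line is the only one used, so the replicates stand for cultures of 1 line and not for donors.

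Type I interferon binds the receptor pair IFNAR1 and IFNAR2, whose kinases JAK1 and TYK2 phosphorylate STAT proteins. These join IRF9 to form ISGF3, a transcription factor that binds a DNA motif called the interferon-stimulated response element and switches on antiviral genes. When interferon is withdrawn, the signal decays through receptor loss, phosphatases and feedback inhibitors such as USP18 and SOCS1, and the transcripts decline at rates set by their own stability. Heart cells respond to type I interferon during virus infection and in autoimmune disease, and lipid synthesis and matrix production are among the programmes on which interferon is known to act.

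Libraries held 43.8 to 56.7 M estimated counts in vehicle and 44.4 to 48.4 M in recovery (1 M is 1000000), and 18119 genes passed the count filter. In the principal components of these 6 libraries the first, with 23.1% of the variance, separated the groups, and the second, with 21.8%, spread libraries within each group. Replicates were stated to be independent biological replicates, and they differed by 1.81 to 2.14 times the Poisson noise. The p-values measure differences against the spread within groups of all 12 libraries in the fit, a common biological coefficient of variation of 2.67%. In that fit the repeat libraries differed from each other by more, 2.53 to 2.98 times the Poisson noise. Of 32 cardiomyocyte markers only 13 were high enough to test. MYH6, MYL7, KCNH2, NKX2-5, TBX5, NPPA and CKMT2 had 0 counts in all 6 libraries, where 3 counts would be 0.0529 to 0.0685 CPM (counts per 1000000). Other members were present, such as GATA6 at a mean of 44.2 CPM and GJA1 at 213 CPM in vehicle. The 32 markers together summed to between 799 and 824 CPM of the library total in these libraries. The label cardiomyocyte is therefore not borne out by the markers at 0 counts, while others of the list were expressed. All 14 fibroblast markers were tested, and the cells are called AC16 cells throughout.

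At 5 days after the pulse a small share of genes differed detectably from vehicle. With edgeR's quasi-likelihood test and a Benjamini-Hochberg adjusted p under 0.05, 1076 of 18119 genes differed (5.94%), of which 549 were higher in recovery (3.03%) and 527 lower (2.91%). The differences were small. The median called gene was 1.14-fold higher or 1.13-fold lower, and 14 genes were called at 2-fold or more higher and 10 at 2-fold or more lower. A test against a 1.5-fold change left 6 genes higher, RSAD2, OAS1, CMPK2, OAS2, OASL and SFRP1, and 1 lower, IL21R. Calls came with abundance, from 0.841% of genes under 1 CPM to 13.6% of genes at 100 CPM or more. The 3 recovery libraries lay wholly above the 3 vehicle libraries for 11.8% of all tested genes and wholly below for 11.8%. Of the 1076 called genes, 1068 were separate in this way in the direction of the call. For a called gene a lack of overlap therefore adds little to the call itself, and it was required of the 15 largest rises and falls. For comparison, the acute libraries of the same fit, which share these vehicle libraries, were called higher at 22.3% of genes and lower at 21.5%. When the gene length implied by the deposited counts and TPM of each library was added as an offset, 178 genes were called, 107 higher and 71 lower, and 166 of them were among the 1076. Limma on log2(TPM + 0.5) called 120. Whether length or count is the better scale was not tested, and the pathway and marker lists below that held calls therefore have their count with the length offset beside them. The background of each list count is 3.03% higher and 2.91% lower over all genes. For the offset counts it is 107 higher and 71 lower of 18119 genes. For counts at an unadjusted p under 0.05 it is 1503 higher and 1577 lower of 18119. For DESeq2 it is 477 and 432, and for limma-voom 512 and 535. Leaving out vehicle library 1 left 624 calls, recovery library 2 left 707 and recovery library 3 left 716.

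**Figure D1:**
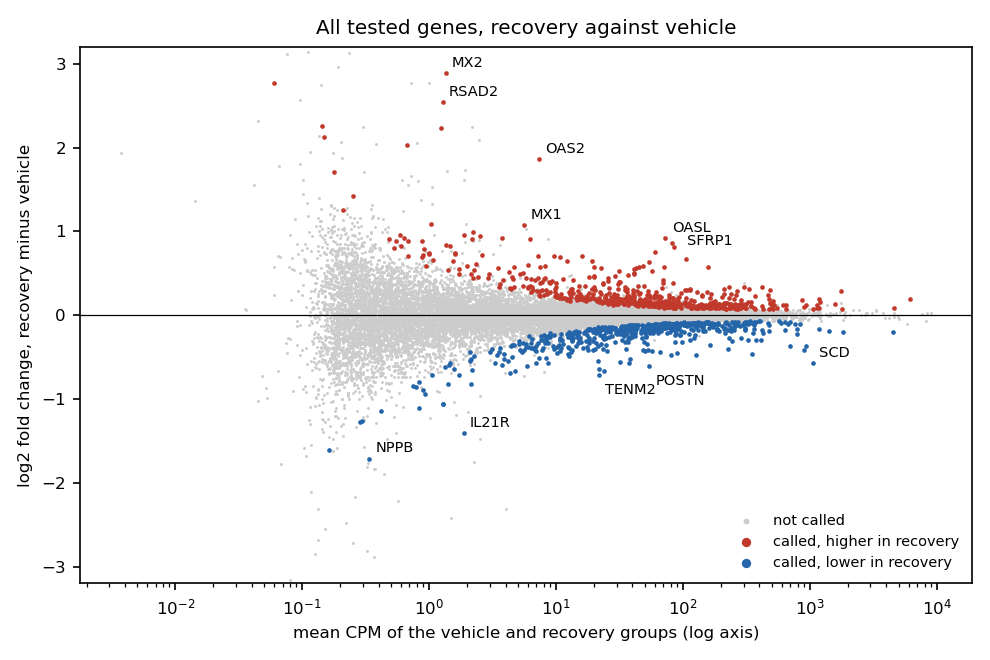
Log2 fold change of recovery against vehicle (y axis) for each tested gene by its mean CPM (x axis, log scale), with genes called higher in red, called lower in blue and not called in grey. Most genes lie along 0, the named interferon-stimulated genes lie above, and 20 genes (2 of them called) fall beyond the limits of 3.2 on the y axis.

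Interferon-stimulated genes were called higher in part. Of 74 classical members tested, 31 were called higher and 0 lower in recovery, against 3.03% and 2.91% of all genes, and the median log2 fold change was 0.13 against 0.00 over all genes. All 74 were called higher in acute, with a median log2 fold change of 2.84. With the length offset 20 were called higher, and on log2(TPM + 0.5) 18. At an unadjusted p under 0.05 the edgeR fit had 34 higher and 5 lower, against 1503 and 1577 of all 18119 genes. DESeq2 and limma-voom called 30 and 27 higher and 0 lower. In bulk RNA, fewer cells with a raised transcript and less RNA per cell cannot be told apart. CPM values below are in the order of replicates 1 to 3, and each log2 fold change is given with its standard error.

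The classical members furthest above vehicle were antiviral effectors that vehicle cells barely transcribed. MX2, a dynamin-like GTPase that restricts nuclear entry of viruses, had 0.508, 0.158 and 0.238 CPM in vehicle and 3.21, 1.82 and 2.15 CPM in recovery. Every recovery library was above every vehicle library, and the log2 fold change was 2.89 ± 0.35 (adjusted p = 0.000811). Acute cells had 219.5 ± 4.93 CPM (SD, n = 3), far above the recovery libraries. RSAD2, or viperin, which makes a chain-terminating nucleotide, had 0.420, 0.317 and 0.368 CPM in vehicle and 2.53, 1.69 and 2.34 CPM in recovery (2.54 ± 0.20, adjusted p = 4.24e-09). Its neighbour CMPK2, a mitochondrial nucleotide kinase, had 0.298, 0.226 and 0.260 CPM against 1.10, 0.866 and 1.29 CPM (2.03 ± 0.20, adjusted p = 8.57e-08). Neither gene's groups overlapped.

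The oligoadenylate synthetases sense double-stranded RNA and make the messenger that activates RNase L. OAS1 had 0.578, 0.181 and 0.498 CPM in vehicle and 2.11, 1.99 and 2.03 CPM in recovery (2.23 ± 0.18, adjusted p = 3.02e-09). OAS2, on the plus strand of chromosome 12 from 112978395 to 113011723 (GRCh38, GENCODE release 44), had 3.14, 3.10 and 3.23 CPM and 11.05, 10.96 and 12.3 CPM (1.86 ± 0.061, adjusted p = 7.19e-18). OAS3 was far more abundant at 40.6, 38.02 and 37.3 CPM and 58.1, 59.5 and 56.2 CPM and differed less (0.58 ± 0.032, adjusted p = 1.03e-12). All 3 synthetases were separate between the groups, and OAS2 had the lowest adjusted p of all genes tested. OASL, a catalytically inactive relative that helps RIG-I signal, had 52.3, 46.8 and 51.7 CPM in vehicle and 92.6, 92.2 and 101 CPM in recovery (0.92 ± 0.047, adjusted p = 7.51e-08). Its acute mean was only 199.7 ± 6.96 CPM, so the rise in recovery was 30.2% of the rise above vehicle seen in acute cells, the largest share among the 31 called genes. Across those 31 this share had a median of 3.94% and a lowest value of 0.318% (IFI6), and across all 74 members a median of 0.977%.

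MX1, which blocks the replication of many RNA viruses in the cytoplasm, had 4.68, 3.05 and 2.92 CPM in vehicle and 7.82, 7.19 and 8.02 CPM in recovery (1.08 ± 0.14, adjusted p = 0.00101). Vehicle library 1 was the highest of its group for MX1, MX2, OAS1 and USP18, but stayed below every recovery library. USP18, the protease that removes ISG15 and blocks the receptor, had 1.77, 0.792 and 1.19 CPM and 2.31, 2.30 and 2.89 CPM (0.95 ± 0.20, adjusted p = 0.0123), and the call was lost without vehicle library 3. Reads of USP18 may be split with its near-identical copy USP41. The ubiquitin-like modifier ISG15 had 47.6, 46.6 and 45.1 CPM and 65.2, 67.6 and 68.3 CPM (0.53 ± 0.035, adjusted p = 1.4e-09), again with no overlap.

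The IFIT proteins bind foreign RNA ends. IFIT3 had 85.3, 78.1 and 82.4 CPM in vehicle and 131, 124 and 136 CPM in recovery (0.67 ± 0.038, adjusted p = 3.42e-08), a call lost with the length offset (adjusted p = 0.17). IFIT2 had 59.1, 53.4 and 59.4 CPM and 85.2, 81.03 and 89.8 CPM (0.57 ± 0.042, adjusted p = 4.32e-07), and IFIT1 differed by 0.49 ± 0.036. IFIT5, in contrast, stood at 21.7, 22.1 and 19.8 CPM and 21.4, 20.5 and 21.7 CPM (0.00 ± 0.040, 95% interval -0.08 to 0.08, adjusted p = 0.995), although its acute mean was 111 ± 0.214 CPM. Thus 3 members of the family were called above vehicle and 1 was not, and a difference between them was not tested. HERC5, the ligase that attaches ISG15, and its neighbour HERC6 differed by 0.58 ± 0.049 and 0.65 ± 0.055. The exonuclease ISG20 differed by 0.59 ± 0.099, the surface protein LY6E by 0.51 ± 0.036, IFI44 by 0.56 ± 0.035, SAMD9 by 0.42 ± 0.037 and SAMD9L by 0.56 ± 0.054. LY6E and IL21R were chosen for naming after their values were seen. Of these, SAMD9L lost its call with the length offset, as did IFIH1, DDX60, DHX58, IFI6, GMPR, ZNFX1, TRIM14, LAP3 and SP100 among the members. Small called differences in TRIM14, LAP3, SP100, NMI, GMPR and IFI6 (log2 fold changes of 0.09 to 0.19) were each lost without any of at least 4 of the 6 libraries, and that of DHX58 without vehicle library 2 or recovery library 2.

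Other members that the pulse had raised steeply overlapped the vehicle range in recovery. IFI44L had 0.596, 0.407 and 0.346 CPM in vehicle and 0.538, 0.693 and 0.800 CPM in recovery, against 177 ± 1.62 CPM in acute cells. IFI27, a mitochondrial protein much used in blood interferon signatures, had 0.210, 0.385 and 0.195 CPM and 0.314, 0.281 and 0.451 CPM against 70.3 ± 1.73 CPM. The virion tether BST2 had 0.596, 0.249 and 0.368 CPM and 0.560, 0.628 and 0.492 CPM against 121 ± 5.90 CPM. In each the groups overlapped and the difference was not called (adjusted p = 0.157, 0.503 and 0.615), although intervals were wide at these counts. Narrower intervals were found for the abundant members: the log2 fold change of EIF2AK2, the kinase PKR, had a 95% interval of -0.07 to 0.05, that of TRIM25 one of -0.07 to 0.02, and that of the ADP-ribosyltransferase PARP9 one of -0.12 to 0.06. Over the 43 members not called the log2 fold change ran from -1.02 to 0.59, and both ends were genes near the limit of detection, the chemokine CXCL10 at 0.0701, 0.0905 and 0.0217 CPM and 0.0224, 0.0650 and 0 CPM (95% interval -2.78 to 0.73) and LAMP3 at 0.0525, 0.0679 and 0.260 CPM and 0.134, 0.281 and 0.144 CPM (95% interval -0.48 to 1.65).

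**Figure D2:**
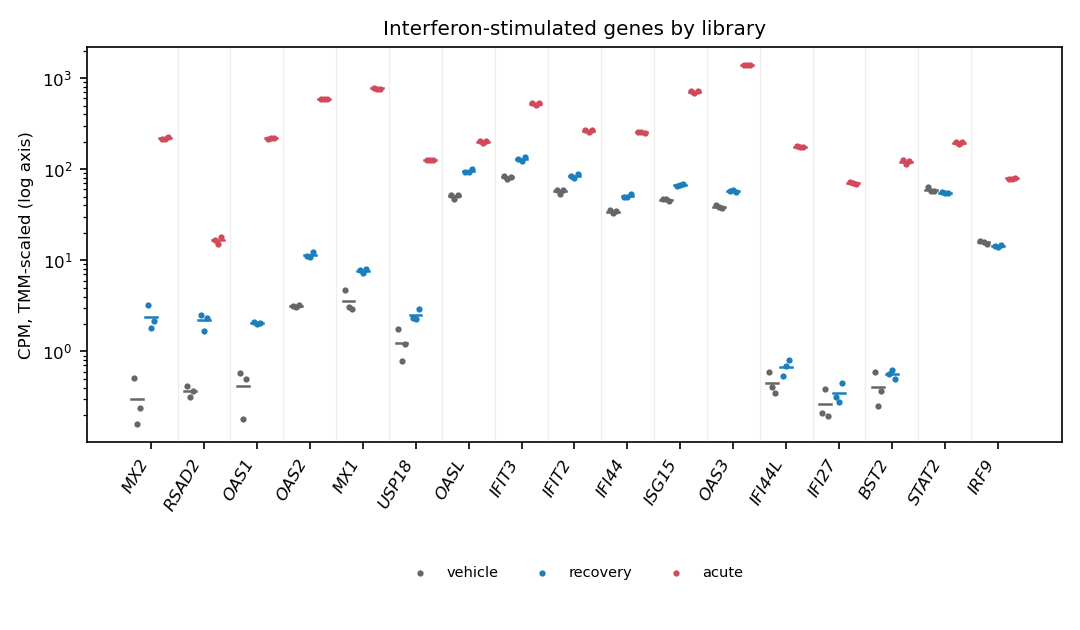
CPM (log axis) of interferon-stimulated genes in each vehicle (grey), recovery (blue) and acute (red) library, with a bar at each group mean (n = 3). MX2, RSAD2, OAS1 and OAS2 have recovery points well above vehicle and far below acute, whereas IFI44L, IFI27 and BST2 overlap vehicle, and STAT2 and IRF9 lie slightly below it.

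Promoter sequences are shown for 4 of the classical interferon-stimulated genes called higher, since the response element is the site at which ISGF3 acts. They were the 4 most raised of that list with at least 5 CPM in recovery and an entry in the RefSeq promoter table (build GRCh38.p14). Called genes outside the list were not considered. The 250 bases before the start are printed, plus strand and 5′ to 3′, with capitals at matches to the motif, searched as GAAANGAAA and GAAANNGAAA and their reverse complements TTTCNTTTC and TTTCNNTTTC. Overlapping matches share 1 run of capitals. MX1 has 3 starts in that table and IFIT3 has 2. The start with the most matches before it was printed, so the matches shown for these genes were selected. The regions are chr21:41425989-41426238 for MX1, chr10:89332279-89332528 for IFIT3, chr4:88378602-88378851 for HERC6 and chr15:88638766-88639015 for ISG20.
MX1: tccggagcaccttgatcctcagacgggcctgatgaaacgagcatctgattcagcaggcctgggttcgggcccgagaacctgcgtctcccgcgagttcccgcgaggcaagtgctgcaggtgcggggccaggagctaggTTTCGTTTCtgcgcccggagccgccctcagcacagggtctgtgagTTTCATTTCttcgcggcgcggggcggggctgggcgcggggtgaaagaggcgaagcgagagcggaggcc
IFIT3: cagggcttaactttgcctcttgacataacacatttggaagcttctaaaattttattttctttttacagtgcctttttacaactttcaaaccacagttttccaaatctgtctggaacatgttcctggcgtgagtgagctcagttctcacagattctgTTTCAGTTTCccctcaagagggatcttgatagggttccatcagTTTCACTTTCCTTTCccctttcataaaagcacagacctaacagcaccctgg
HERC6: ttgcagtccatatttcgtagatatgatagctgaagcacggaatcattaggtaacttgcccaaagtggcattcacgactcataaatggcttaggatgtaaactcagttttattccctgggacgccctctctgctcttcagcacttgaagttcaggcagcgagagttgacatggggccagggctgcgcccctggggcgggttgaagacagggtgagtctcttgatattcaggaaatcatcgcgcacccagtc
ISG20: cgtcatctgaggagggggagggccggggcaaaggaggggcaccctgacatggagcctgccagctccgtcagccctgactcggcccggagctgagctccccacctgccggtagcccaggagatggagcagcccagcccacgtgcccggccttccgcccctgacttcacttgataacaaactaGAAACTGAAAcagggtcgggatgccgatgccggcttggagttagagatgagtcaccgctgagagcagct
Matches began 113 and 68 bases before the start in MX1, 94, 51 and 45 before it in IFIT3 and 69 before it in ISG20, and HERC6 had none in this window. Shares of genes were counted differently from the printed stretches: a match at any start of a gene counted, in a window that also runs past the start. Of the 60 interferon-stimulated genes with an entry, 49 (81.7%) held a match, against 7.83% of the 27305 genes in the table and 7.12% of the tested genes with an entry. A match was held by 19 of 24 members called higher in recovery (79.2%) and by 30 of 36 not called (83.3%). The difference between these shares was not tested, and a match is no measure of binding.

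Components that carry the signal were called in both directions. Of 22 tested receptor, JAK-STAT and IRF genes, 2 were called higher and 2 lower, against 3.03% and 2.91% of all genes. With the length offset 0 were called in either direction. DESeq2 called 0 higher and 1 lower, and limma-voom 1 and 2. At an unadjusted p under 0.05, 2 were higher and 8 lower, against 1503 and 1577 of all 18119 genes. STAT2, a subunit of ISGF3, had 63.1, 57.4 and 57.1 CPM in vehicle and 55.7, 54.3 and 54.5 CPM in recovery (-0.11 ± 0.038, adjusted p = 0.0954), and IRF9 16.1, 15.98 and 15.2 CPM and 14.5, 13.9 and 14.6 CPM (-0.14 ± 0.043, adjusted p = 0.0587). For both the recovery libraries lay below the vehicle libraries without passing the threshold. Each was called lower under a few other settings, STAT2 without a count filter (adjusted p = 0.0175), with a replicate block (0.0261) and without vehicle library 3 (0.0439), and IRF9 with a stricter filter (0.046) and without vehicle library 3 (0.0374). The called members were JAK2 (0.20 ± 0.060) and IRF1 (0.16 ± 0.046), higher, and STAT3 (-0.14 ± 0.026) and STAT5B (-0.11 ± 0.030), lower. Leaving out single libraries took the higher calls to between 0 and 1 and the lower calls to 1 for 4 of the 6 libraries. IRF7, the factor that amplifies interferon production, stood at 7.23, 7.26 and 6.30 CPM and 7.15, 7.75 and 7.36 CPM (0.10 ± 0.067). The receptor chains IFNAR1 and IFNAR2 differed by -0.08 ± 0.027 and 0.00 ± 0.054 and the kinases JAK1 and TYK2 by -0.01 ± 0.023 and -0.07 ± 0.029, none of them called. Among 16 feedback inhibitors USP18 and ISG15 were called higher and the phosphatase PTPN11 lower (-0.07 ± 0.021), against 3.03% and 2.91% of all genes. With the length offset 2 were called higher and 0 lower. The PTPN11 call was lost when any library was left out. SOCS1, an inhibitor of JAK kinases, differed by 0.02 ± 0.12 without a call.

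Among nucleic acid sensors a few genes were called, most of them higher. Of 23 tested, 5 were called higher and 1 lower (2 and 1 with the length offset), against 3.03% and 2.91% of all genes, and the median log2 fold change was 0.04. RIGI, the sensor of triphosphate RNA, had 34.7, 31.3 and 34.04 CPM in vehicle and 49.8, 45.7 and 51.5 CPM in recovery (0.55 ± 0.053, adjusted p = 2.21e-05). IFIH1, the sensor MDA5, had 7.08, 5.27 and 5.41 CPM and 9.26, 8.21 and 9.45 CPM (0.58 ± 0.098), though not with the length offset (adjusted p = 0.12). Both were higher in every recovery library. STING1, the adaptor for cytosolic DNA, had 40.4, 37.99 and 39.4 CPM and 50.3, 47.1 and 52.4 CPM (0.34 ± 0.037, adjusted p = 3.07e-07) and an acute mean of 61.6 ± 1.92 CPM. IFI16, a nuclear DNA sensor, stood apart in direction: it was called lower, at 109, 109.6 and 108 CPM and 101, 99.2 and 101 CPM (-0.11 ± 0.022, adjusted p = 0.00121), after an acute mean of 399.7 ± 0.970 CPM.

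Class I antigen presentation was called higher in 8 of 25 members and lower in 0, against 3.03% and 2.91% of all genes (7 and 0 with the length offset). The median log2 fold change was 0.10 against 0.00 over all genes. Lower calls were also 0 by DESeq2 and limma-voom, and 3 members were lower at an unadjusted p under 0.05. Leaving out vehicle library 3 gave 2 lower calls and recovery library 2 gave 1. HLA-F had 3.00, 2.31 and 2.36 CPM in vehicle and 4.48, 5.48 and 4.74 CPM in recovery (0.92 ± 0.11, adjusted p = 2.14e-06). HLA-C had 349.8, 341 and 337 CPM and 399, 401 and 405 CPM (0.23 ± 0.022, adjusted p = 4.26e-08), and HLA-B differed by 0.24 ± 0.027, a call lost with the length offset. HLA genes share long stretches of sequence, so the split of reads between them is uncertain. The immunoproteasome subunit PSMB9 had 7.32, 6.49 and 6.86 CPM and 9.03, 9.55 and 9.37 CPM (0.43 ± 0.058, adjusted p = 1.09e-05). The peptide transporter TAP1 had 30.6, 27.5 and 28.4 CPM and 33.4, 33.4 and 32.9 CPM (0.20 ± 0.034, adjusted p = 0.000281), and NLRC5, the activator of class I genes, differed by 0.10 ± 0.039 without a call (adjusted p = 0.154). Of 8 tested class II genes 0 were called by edgeR, DESeq2 or limma-voom, and 0 had an unadjusted p under 0.05.

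Of 21 guanylate-binding proteins and other genes typical of interferon gamma, 6 were called higher and 2 lower, against 3.03% and 2.91% of all genes. With the length offset 2 were called higher and 0 lower. On counts 1 was called lower when any of vehicle library 1 or 3 or recovery library 2 or 3 was left out. GBP4, a GTPase of cell-autonomous immunity, had 4.61, 3.78 and 4.48 CPM in vehicle and 7.71, 7.10 and 9.39 CPM in recovery (0.91 ± 0.097, adjusted p = 4.54e-07). Its acute mean of 7.08 ± 0.323 CPM lay at the lower end of the recovery libraries. APOL6 differed by 0.38 ± 0.046 and kept its call with the length offset. APOL3 differed by 0.34 ± 0.089 on counts and by -0.062 with the offset, so its direction depends on the scale, and its call was lost without vehicle library 1 or recovery library 3. Among 16 retroelement restriction factors the zinc-finger antiviral protein ZC3HAV1, at 86.4, 90.1 and 87.4 CPM and 105, 108 and 105 CPM (0.27 ± 0.029, adjusted p = 2.83e-07), and APOBEC3G (0.23 ± 0.063) were called higher, with and without the length offset, and 0 lower (0 also by DESeq2 and limma-voom, and 2 at an unadjusted p under 0.05). The APOBEC3G call was lost without vehicle library 2 or 3 or recovery library 2 or 3. Over all 18119 genes 1577 were lower at an unadjusted p under 0.05.

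Inflammatory and complement genes included several that stood below vehicle although the acute level had been above it. Of 27 cytokine and NF-kB target genes 4 were called higher and 3 lower, against 3.03% and 2.91% of all genes. With the length offset 0 were called in either direction. Leaving out vehicle library 1 or recovery library 2 or 3 gave 2 higher. ICAM1, the adhesion ligand for leukocyte integrins, had 30.2, 28.9 and 28.1 CPM in vehicle and 20.9, 22.2 and 21.8 CPM in recovery (-0.43 ± 0.042, adjusted p = 7.6e-08; 0.13 with the length offset), with an acute mean of 33.2 ± 0.873 CPM. The chemokine CCL2 differed by -0.34 ± 0.070, CXCL1 by 0.73 ± 0.18 at about 1 CPM, and the NF-kB feedback genes TNFAIP3 and BIRC3 by 0.35 ± 0.090 and 0.42 ± 0.073. The CXCL1 call was lost without vehicle library 1 or recovery library 2 or 3, and the TNFAIP3 call without any one library other than vehicle library 3. Of 16 complement genes 4 were called lower and 1 higher (1 and 0 with the length offset, and 2 lower without vehicle library 1 or recovery library 2). C1R, a protease of the classical pathway, had 64.3, 56.5 and 60.7 CPM in vehicle and 46.95, 43.9 and 45.2 CPM in recovery (-0.42 ± 0.037, adjusted p = 7.61e-08), after 153 ± 3.01 CPM in acute cells. Its partner C1S had 27.01, 25.8 and 27.1 CPM and 20.4, 19.5 and 20.6 CPM (-0.40 ± 0.047, adjusted p = 1.92e-06; 0.10 with the length offset), after 86.5 ± 5.34 CPM. For both genes the recovery libraries were the lowest of the 3 groups.

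On counts, most of the lipid synthesis genes tested were called lower. Of 25 genes of cholesterol synthesis and uptake, 16 were called lower and 0 higher (2.91% and 3.03% of all genes), every member had a negative log2 fold change, and the median was -0.15 against 0.00. With the length offset 4 were called lower, and on log2(TPM + 0.5) 2. Higher calls were also 0 by DESeq2 and limma-voom, which each called 16 lower, and 0 members were higher at an unadjusted p under 0.05. Of 20 genes of fatty acid synthesis and desaturation 12 were called lower and 1 higher (4 and 0 with the offset), with a median of -0.17.

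SCD, the desaturase that makes oleate, lies on the plus strand of chromosome 10 from 100347233 to 100364826. It had 1418, 1210.3 and 1161 CPM in vehicle and 921, 781 and 853 CPM in recovery (-0.57 ± 0.080, adjusted p = 0.00336). The groups were separate, and recovery stood between vehicle and the acute mean of 445 ± 7.77 CPM. FADS2, a desaturase of polyunsaturated fatty acids, had 449, 388 and 381 CPM and 307, 279 and 295 CPM (-0.47 ± 0.065, adjusted p = 0.00308) with 156 ± 3.21 CPM in acute cells. FASN, the fatty acid synthase, had 1106, 999.999 and 979.5 CPM and 815, 732 and 759.9 CPM (-0.42 ± 0.052, adjusted p = 0.00133). Vehicle library 1 was the highest of its group for all 3, and the groups did not overlap, as in nearly all called genes. SREBF1, which encodes the transcription factor for these enzymes, had 154, 147 and 139 CPM and 113, 101 and 104 CPM (-0.47 ± 0.038, adjusted p = 7.92e-07), while its relative SREBF2 was called lower by a log2 fold change of -0.15 ± 0.023. These 4 genes, SCD, FADS2, FASN and SREBF1, kept their calls with the length offset.

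In the sterol branch INSIG1, which holds the SREBP complex in the endoplasmic reticulum, had 285, 250.5 and 242 CPM in vehicle and 209, 186 and 193 CPM in recovery (-0.40 ± 0.064, adjusted p = 0.00633). HMGCS1, an early enzyme of the pathway, had 331, 306 and 310.1 CPM and 271, 254 and 262 CPM (-0.27 ± 0.031, adjusted p = 1.28e-05). Both kept their calls with the offset. The enzymes LSS (-0.28 ± 0.028), MVD (-0.24 ± 0.035) and FDPS (-0.18 ± 0.041) were called on counts and not with the offset, and FDPS also not without recovery library 2 or 3. Of 7 cholesterol export genes 4 were called lower (2 with the offset), against 2.91% of all genes. ABCA1, the exporter of cholesterol to apolipoprotein A-I, had 8.41, 7.22 and 5.80 CPM and 5.18, 4.18 and 4.78 CPM (-0.61 ± 0.12, adjusted p = 0.00208; 0.37 with the offset). LPCAT3, which remodels phospholipids, had 42.6, 39.6 and 41.5 CPM and 33.3, 32.2 and 33.5 CPM (-0.32 ± 0.037, adjusted p = 7.2e-07) and kept its call. Export genes called higher were 0 by edgeR, DESeq2 and limma-voom, and 0 at an unadjusted p under 0.05.

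**Figure D3:**
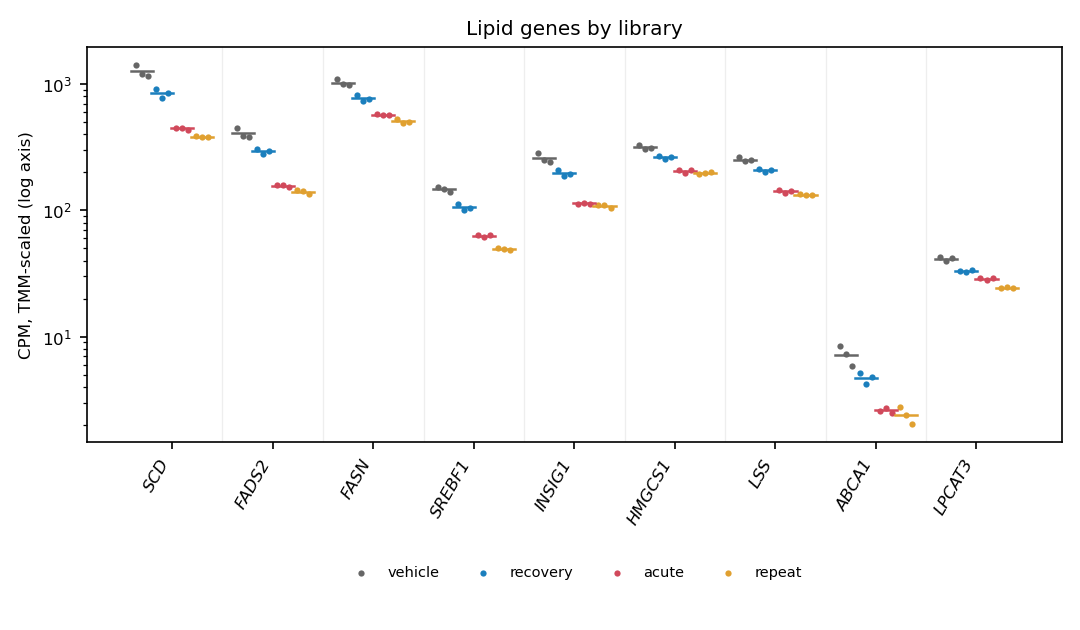
CPM (log axis) of lipid genes in each vehicle (grey), recovery (blue), acute (red) and repeat (orange) library, with a bar at each group mean (n = 3). In each gene drawn the recovery points lie below the vehicle points and above the acute and repeat means.

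Collagen genes were called lower more often than higher. Of 33 collagen and collagen-processing genes, 18 were called lower and 4 higher, against 2.91% and 3.03% of all genes. With the length offset 6 were called lower and 1 higher. The median log2 fold change on counts was -0.17. COL11A1, a minor fibril collagen, had 49.6, 43.3 and 41.03 CPM in vehicle and 32.9, 27.7 and 30.1 CPM in recovery (-0.57 ± 0.079, adjusted p = 0.00147; 0.28 with the offset). COL3A1, a major fibril collagen, had 799, 739 and 809.7 CPM and 603, 583 and 631 CPM (-0.37 ± 0.033, adjusted p = 6.48e-06; 0.054 with the offset). COL12A1, a collagen that coats fibrils, had 435, 411 and 407 CPM and 352, 322 and 344 CPM (-0.30 ± 0.042, adjusted p = 0.0013). Recovery libraries were lower throughout in all 3. COL4A1, of basement membranes, had 350.4, 359 and 369.98 CPM and 289.9, 294 and 295 CPM (-0.30 ± 0.024, adjusted p = 1.93e-09), whereas its acute mean was 466 ± 11.7 CPM, above vehicle. COL1A1 and COL1A2, the chains of type I collagen, differed by -0.21 ± 0.026 and -0.19 ± 0.021, and both kept their calls with the offset. The opposite direction was found for the 3 chains of collagen VI, a microfibril collagen: COL6A1 had 1072, 1099.9 and 1157 CPM in vehicle and 1223, 1273 and 1308 CPM in recovery (0.19 ± 0.028), COL6A2 differed by 0.18 ± 0.024 and COL6A3 by 0.16 ± 0.040. COL6A1 kept its call with the offset and the other two chains did not, and the COL6A3 call was also lost without any of vehicle libraries 1 and 2 and recovery libraries 2 and 3. The type I and type VI chains were picked after their values were seen. COL13A1, a transmembrane collagen, had 57.6, 61.2 and 63.7 CPM and 74.6, 74.7 and 79.7 CPM (0.33 ± 0.034, adjusted p = 1.43e-07; 0.19 with the offset) and an acute mean of 60.97 ± 0.840 CPM.

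Of 31 small proteoglycans and matricellular genes 12 were called lower and 1 higher, against 2.91% and 3.03% of all genes. With the offset 4 were called lower and 0 higher. LUM, the fibril-spacing proteoglycan lumican, had 30.97, 29.1 and 27.8 CPM in vehicle and 19.5, 17.1 and 18.9 CPM in recovery (-0.66 ± 0.061, adjusted p = 2.83e-07). DCN, its relative decorin, had 43.7, 37.7 and 39.4 CPM and 30.2, 30.9 and 30.2 CPM (-0.41 ± 0.045, adjusted p = 6.54e-07). Both stood between vehicle and acute, at acute means of 15.1 ± 0.573 and 23.4 ± 0.561 CPM. POSTN, the matricellular protein periostin of activated fibroblasts, lies on the minus strand of chromosome 13 from 37562583 to 37598844. It had 67.6, 60.5 and 67.4 CPM in vehicle, 44.3, 40.7 and 43.7 CPM in recovery (-0.60 ± 0.041, adjusted p = 1.24e-09), and 63.8 ± 0.579 CPM in acute cells. Its acute mean lay within the vehicle range, and the repeat libraries had 43.9 ± 1.60 CPM. All 3 kept their calls with the offset. PDGFRA, a receptor of stromal cells, differed by -0.22 ± 0.037 on counts but by 0.14 with the offset, without a call.

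Adhesion genes were called higher more often than lower on counts. Of 26 integrins and laminins 11 were called higher and 3 lower (2 and 0 with the offset), against 3.03% and 2.91% of all genes, and the median log2 fold change was 0.07. The higher calls fell to 7 without vehicle library 1, 5 without vehicle library 2, 7 without recovery library 2 and 4 without recovery library 3. The lower calls fell to 0 or 1 without any one of the same libraries or recovery library 1. ITGA2, the collagen-binding integrin chain, had 55.8, 56.4 and 60.99 CPM in vehicle and 102, 96.5 and 116 CPM in recovery (0.86 ± 0.077, adjusted p = 0.000212), after 146 ± 0.960 CPM in acute cells. LAMB3, a chain of laminin-332, had 30.3, 35.5 and 37.3 CPM and 46.7, 48.1 and 49.8 CPM (0.49 ± 0.066, adjusted p = 0.00101). These 2 kept their calls with the offset. LAMA3, which pairs with LAMB3, went the other way on counts (-0.30 ± 0.079), but with the offset its log2 fold change was 0.59 and not called. Of 29 matrix proteases and inhibitors 7 were called higher and 4 lower (2 and 1 with the offset). PLAU, the urokinase that activates plasmin, had 14.1, 14.03 and 17.02 CPM and 22.3, 24.1 and 24.3 CPM (0.65 ± 0.060, adjusted p = 2.83e-07; 0.20 with the offset). TIMP3, a matrix-bound inhibitor of metalloproteinases, had 286, 294 and 308 CPM and 366, 357 and 381 CPM (0.32 ± 0.026, adjusted p = 4.24e-09). Its acute mean was 374 ± 4.41 CPM, so the recovery libraries stood at the acute level. The aggrecanase ADAMTS5 was lower (-0.41 ± 0.070; adjusted p = 0.052 with the offset).

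**Figure D4:**
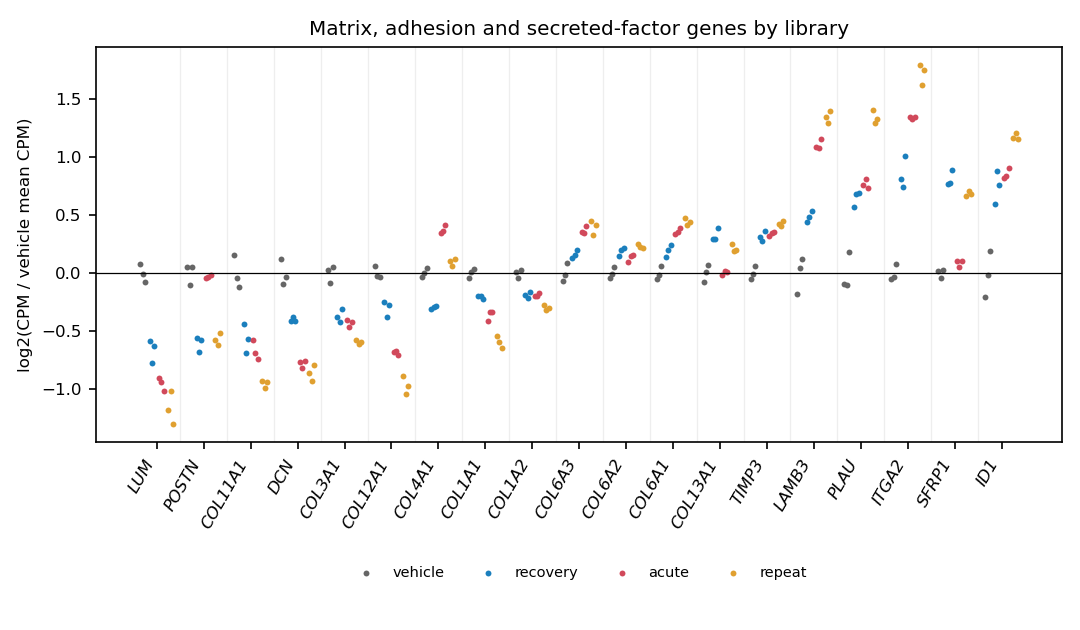
Log2 of each library's CPM over the vehicle mean (y axis) for matrix, adhesion and secreted-factor genes, in vehicle (grey), recovery (blue), acute (red) and repeat (orange) libraries. LUM, POSTN and COL11A1 lie below 0 in recovery, ITGA2, SFRP1 and ID1 above it, and for POSTN and SFRP1 the recovery and repeat points lie together while the acute points lie near vehicle.

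Growth factor pathways were mixed in direction, beside 3.03% of all genes called higher and 2.91% lower. Of 39 TGF-beta, BMP and ID genes 11 were called higher and 5 lower (6 and 2 with the offset). The lower calls fell to 2 or 3 without any one library other than vehicle library 3. ID1, a transcriptional inhibitor induced by BMP, had 39.1, 44.5 and 51.3 CPM in vehicle and 67.9, 82.5 and 75.95 CPM in recovery (0.75 ± 0.099, adjusted p = 0.00234). ID3 had 68.2, 73.3 and 75.7 CPM and 88.8, 98.3 and 95.6 CPM (0.38 ± 0.050, adjusted p = 0.000586). TGFB2, a TGF-beta ligand, was lower at 109, 104 and 95.5 CPM and 79.6, 77.4 and 69.3 CPM (-0.45 ± 0.057, adjusted p = 0.000783), while its receptor TGFBR2 (0.31 ± 0.028) and co-receptor ENG (0.29 ± 0.029) were higher. These 5 kept their calls with the offset. Of 34 Wnt genes 4 were called higher and 4 lower (1 and 0 with the offset, and 2 lower without vehicle library 1 or recovery library 3).

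SFRP1, a secreted antagonist of Wnt ligands, had the lowest adjusted p of the genes outside the interferon lists. It had 62.5, 60.2 and 62.8 CPM in vehicle and 105, 106 and 115 CPM in recovery, with no overlap (0.81 ± 0.031, adjusted p = 1.73e-16). The acute mean was 65.8 ± 1.51 CPM and the repeat mean 99.2 ± 1.44 CPM, so recovery and repeat stood apart from vehicle and acute. Labelled time in culture and an earlier pulse cannot be told apart in this grouping, and its cause was not tested. AKR1C2 and ACTN2 were likewise nearer to vehicle in acute than in recovery and repeat, at 1.76 ± 0.236 and 1.92 ± 0.0904 CPM in acute and 3.36 ± 0.286 and 3.58 ± 0.299 CPM in repeat. Of 17 genes of IGF signalling 4 were called higher and 2 lower, against 3.03% and 2.91% of all genes (2 and 0 with the offset). IGFBP5, a carrier of insulin-like growth factors, had 5.94, 5.30 and 4.92 CPM and 3.68, 3.23 and 3.14 CPM (-0.69 ± 0.11, adjusted p = 9.77e-05; 0.47 with the offset), and IGFBP6 had 61.7, 58.97 and 61.7 CPM and 77.5, 81.9 and 79.2 CPM (0.39 ± 0.043, adjusted p = 2.1e-05). IGFBP7 differed by -0.08 ± 0.023 and lost its call whichever of the 6 libraries was left out.

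Contractile genes were called in both directions, with a median log2 fold change of -0.01. Over all genes 2.91% were called lower and 3.03% higher. Of 28 contractile and YAP target genes 6 were called lower and 4 higher (3 and 2 with the offset, and 2 higher without vehicle library 1). ACTA2, smooth muscle actin, had 15.03, 14.9 and 12.7 CPM in vehicle and 10.8, 10.9 and 10.9 CPM in recovery (-0.39 ± 0.064, adjusted p = 0.000151). CNN1, the actin-binding calponin, had 23.2, 23.2 and 20.2 CPM and 17.7, 16.3 and 15.9 CPM (-0.42 ± 0.055, adjusted p = 6.24e-06; 0.15 with the offset). TAGLN, or transgelin, had 227, 237 and 224 CPM and 200.03, 201 and 195 CPM (-0.21 ± 0.025, adjusted p = 1.61e-06), below vehicle although its acute mean was 287 ± 8.90 CPM. On the other side NT5E, the ectonucleotidase CD73 that makes adenosine, had 117, 127 and 134 CPM and 179.6, 182 and 198 CPM (0.57 ± 0.049, adjusted p = 5.73e-05). It kept its call with the offset.

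Proliferation genes were called about as often as all genes, of which 3.03% were higher and 2.91% lower. Of 34 G1/S genes 1 was called, CCND1, the cyclin that opens G1, at 250.3, 267 and 281 CPM in vehicle and 327, 336 and 349 CPM in recovery (0.34 ± 0.037, adjusted p = 7.39e-05), and 0 were lower. Of 37 G2/M genes 1 was called, the cytokinesis protein ANLN (0.09 ± 0.019), and 0 were lower. With the length offset CCND1 was still called and ANLN was not. Lower calls were 0 for both lists by DESeq2 and limma-voom, with 6 and 3 members lower at an unadjusted p under 0.05. MKI67, the marker of cycling cells, had 965, 961 and 983 CPM and 1012, 992 and 981 CPM (0.04 ± 0.031), and the topoisomerase TOP2A had 614, 628 and 619 CPM and 629, 636 and 618 CPM (0.02 ± 0.022), whereas acute means were 845 ± 2.21 and 468 ± 13.6 CPM. The groups overlapped in both.

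No respiratory gene or chaperone was called by edgeR. Mitochondrially encoded genes took 5.64% ± 0.059 of counts in recovery and 5.64% ± 0.17 in vehicle (SD, n = 3 each; difference -0.0034 percentage points, exact two-sided permutation p = 1, with 0.1 the smallest that 3 against 3 allows). Of the 13 mitochondrial mRNAs and the 45 nuclear-encoded respiratory subunits 0 were called by edgeR, DESeq2 or limma-voom, and 0 and 4 were higher at an unadjusted p under 0.05. Of 18 heat shock proteins edgeR called 0, with 1 higher and 2 lower at an unadjusted p under 0.05, and DESeq2 and limma-voom called 1 higher each. Over all 18119 genes edgeR called 3.03% higher and 2.91% lower, and 1503 were higher and 1577 lower at an unadjusted p under 0.05.

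Stress and metabolic lists also held calls, beside 2.91% of all genes called lower and 3.03% higher. Of 34 glycolysis and hypoxia genes 7 were called lower and 0 higher (2 and 0 with the offset, and 4 lower without vehicle library 1 or recovery library 2), and higher calls were 0 by DESeq2 and limma-voom with 2 at an unadjusted p under 0.05. The aldolase ALDOC had 14.1, 12.3 and 10.6 CPM in vehicle and 9.28, 9.57 and 8.74 CPM in recovery (-0.43 ± 0.079, adjusted p = 0.000711), and the angiogenic factor VEGFA had 56.6, 55.7 and 55.4 CPM and 47.9, 46.5 and 47.1 CPM (-0.25 ± 0.034, adjusted p = 1.56e-05; 0.076 with the offset). PFKFB4 differed by -0.21 ± 0.064 and turned to 0.0021 with the offset, uncalled, and its call was lost whichever library was left out. Of 27 genes of amino acid and endoplasmic reticulum stress 8 were called lower and 0 higher, with 1 lower left with the offset (PHGDH, the first enzyme of serine synthesis, -0.11 ± 0.024) and 2 without vehicle library 1, 4 without vehicle library 2, 5 without recovery library 1 or 2 and 3 without recovery library 3. Higher calls were 0 by DESeq2 and limma-voom, with 1 at an unadjusted p under 0.05. Of 24 NRF2 targets 6 were called higher and 1 lower (2 and 0 with the offset). AKR1C1, an aldo-keto reductase, had 8.65, 7.40 and 8.49 CPM and 12.4, 13.8 and 13.6 CPM (0.70 ± 0.063, adjusted p = 1.56e-08), and NQO1, a quinone reductase, 191, 186 and 192 CPM and 206, 209.7 and 204 CPM (0.12 ± 0.023, adjusted p = 0.000585). AKR1C1 and AKR1C2 are close copies whose reads may be split between them.

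Of 30 immediate early and ERK feedback genes 10 were called higher and 2 lower, against 3.03% and 2.91% of all genes. With the offset 3 were called higher and 1 lower. On counts 6 were called higher without vehicle library 2 and 5 without recovery library 3. FOSL1, an AP-1 subunit, had 192, 205 and 217 CPM in vehicle and 254, 262 and 258 CPM in recovery (0.34 ± 0.048, adjusted p = 0.00193). KLF2, a transcription factor, had 15.99, 16.5 and 17.4 CPM and 22.1, 23.2 and 23.3 CPM (0.46 ± 0.047, adjusted p = 1.34e-07), and JUND, another AP-1 subunit, was lower at 114, 108 and 107 CPM and 88.8, 88.9 and 86.2 CPM (-0.32 ± 0.027, adjusted p = 5.58e-09). The 3 genes kept their calls with the offset. Of 17 clock genes 2 were called lower, BHLHE40 (-0.32 ± 0.041) and PER1 (-0.19 ± 0.055), and 0 higher (0 also by DESeq2 and limma-voom, and 1 at an unadjusted p under 0.05), and neither was called with the offset. The PER1 call was lost without any one library other than vehicle library 2.

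**Figure D5:**
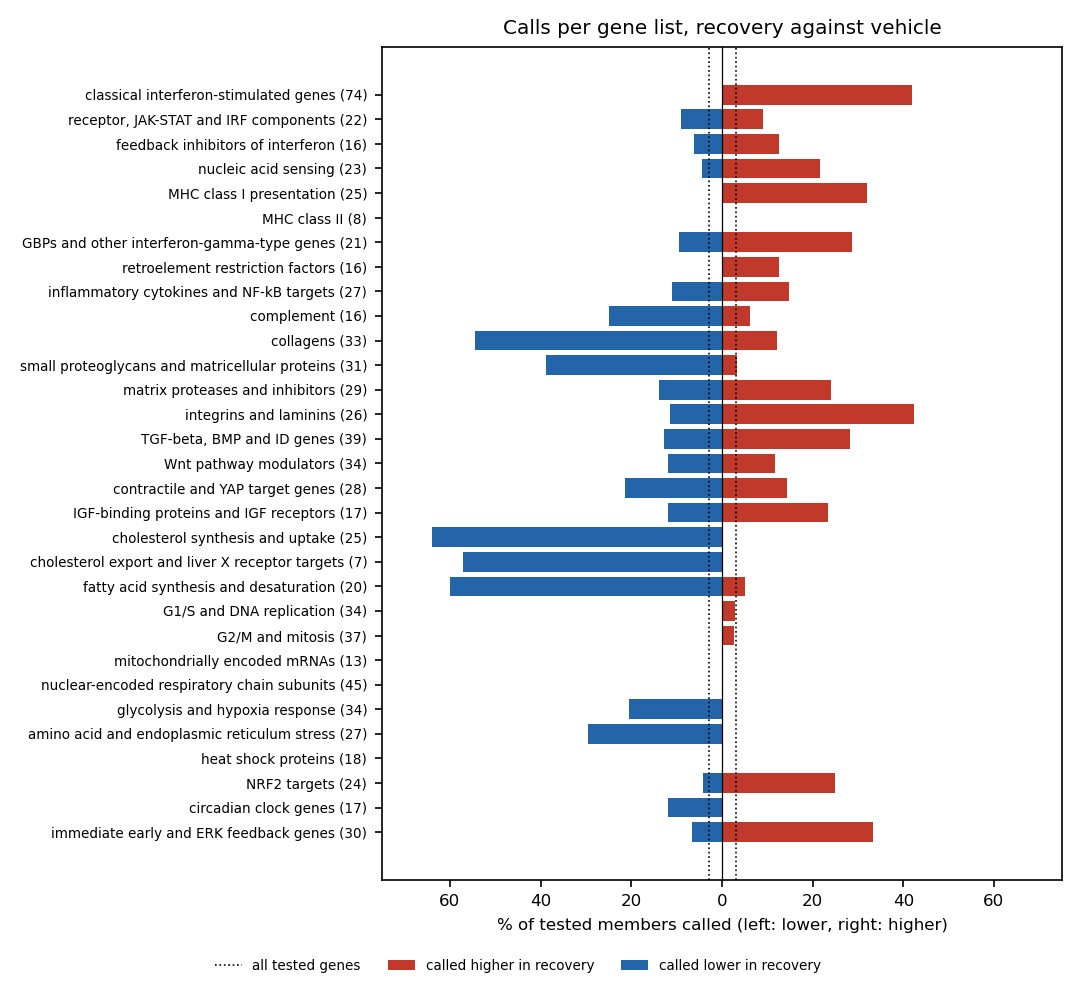
Share of the tested members of each gene list (number in brackets) called higher (red, right) or lower (blue, left) in recovery, with dotted lines at 3.03% and 2.91% for all tested genes. The lists of cell type markers are not drawn. Interferon-stimulated, class I and adhesion genes extend to the right, and cholesterol, fatty acid and collagen genes to the left.

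Among genes of no list, the 15 largest rises included SCUBE3, a secreted and cell-surface glycoprotein, at 11.6, 11.5 and 13.4 CPM in vehicle and 19.1, 19.8 and 20.6 CPM in recovery (0.71 ± 0.062, adjusted p = 7.51e-08). LYPD1, a Ly6-family protein that binds nicotinic receptors, had 5.50, 6.04 and 4.94 CPM and 8.63, 8.83 and 9.37 CPM (0.71 ± 0.077, adjusted p = 3.5e-07). G0S2, an inhibitor of the triglyceride lipase ATGL, had 39.4, 41.9 and 45.4 CPM and 62.8, 64.5 and 69.4 CPM (0.64 ± 0.070, adjusted p = 0.000527). In all 3 the acute mean was higher still, at 44.8 ± 1.96, 11.3 ± 0.687 and 89.8 ± 7.28 CPM. The semaphorin receptor PLXNA2 differed by 0.70 ± 0.078 and lost its call with the offset.

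The largest fall among the 15 was that of TENM2, a teneurin of cell-to-cell adhesion, with 27.6, 28.1 and 25.8 CPM in vehicle and 17.1, 16.7 and 16.02 CPM in recovery (-0.71 ± 0.048, adjusted p = 8.65e-11; 0.54 with the offset). DEPTOR, an inhibitor of mTOR, had 5.97, 5.16 and 6.26 CPM and 3.43, 3.77 and 3.75 CPM (-0.67 ± 0.11, adjusted p = 0.000251). NNMT, which methylates nicotinamide, had 49.5, 44.8 and 42.3 CPM and 32.8, 31.9 and 30.3 CPM (-0.53 ± 0.051, adjusted p = 6.63e-07). Each was lower again in acute cells, at 14.8 ± 0.205, 2.08 ± 0.162 and 18.8 ± 0.636 CPM. CEBPD, a transcription factor of the acute phase response, differed by -0.54 ± 0.069, and TNFRSF11B, the decoy receptor osteoprotegerin, by -0.56 ± 0.074. The scavenger receptor OLR1 (-0.64 ± 0.11), LYPD6B (-0.57 ± 0.074) and the LIM protein LMCD1 (-0.51 ± 0.089) lost their calls with the offset, and ECEL1P2 (-0.57 ± 0.081) is a pseudogene that may share reads with its relatives. IL21R, a cytokine receptor that signals through STAT proteins, was the gene called lower in the 1.5-fold test, at 3.21, 2.24 and 2.71 CPM in vehicle and 1.08, 0.866 and 1.13 CPM in recovery (-1.41 ± 0.19, adjusted p = 1.24e-05; 0.10 with the offset). Of the 15 largest rises 12 kept their calls with the offset, and of the 15 largest falls 8.

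Markers of cell types were read in the same libraries, beside 3.03% of all genes called higher and 2.91% lower. Of the 13 cardiomyocyte markers tested, ACTN2, the sarcomeric alpha-actinin, was called higher, at 1.31, 1.54 and 1.58 CPM in vehicle and 3.43, 2.53 and 2.85 CPM in recovery (0.99 ± 0.14, adjusted p = 1.84e-05; 0.39 with the offset). NPPB, the natriuretic peptide BNP, was lower at 0.631, 0.407 and 0.520 CPM and 0.202, 0.130 and 0.144 CPM (-1.71 ± 0.34, adjusted p = 0.00154). Both lie at 4 CPM or less, and the larger counts of GATA6 (-0.17 ± 0.034) and the gap junction gene GJA1 (-0.13 ± 0.023) were called lower by small amounts. In all 1 was called higher and 3 lower (0 and 2 with the offset). The 32 markers summed to 822 to 824 CPM of the library total in vehicle and 799 to 812 in recovery. Of 14 fibroblast markers 9 were called lower and 1, VIM (0.19 ± 0.021), higher (5 and 1 with the offset). The fibroblast list summed to 19208 to 20063 CPM in vehicle and 18858 to 19018 in recovery. Its called members are largely the matrix genes described above. Of 9 smooth muscle and pericyte markers 3 were called lower (ACTA2, CNN1 and MCAM, of which ACTA2 was the 1 called with the offset), and the sums were 631 to 657 and 640 to 662 CPM. Leukocyte markers were led by CD68, which AC16 cells express, at 93.2, 94.02 and 93.5 CPM and 111, 121 and 112 CPM (0.30 ± 0.031, adjusted p = 6.54e-07), a call kept with the offset, while CD3E, CD3D, MS4A1, NKG7 and FCGR3A had 0 counts in all 6 libraries. The 12 leukocyte markers summed to 97.0 to 98.4 and 115 to 125 CPM, and the 8 epithelial markers to 432 to 453 and 410.0 to 420 CPM, where KRT18 (-0.10 ± 0.022) was called lower, though not with the offset or without vehicle library 1. Of 7 endothelial markers tested edgeR called 0 (0 also by DESeq2 and limma-voom, and 1 at an unadjusted p under 0.05), and the 10 summed to 17.3 to 19.03 and 16.7 to 18.3 CPM. The part of these marker levels in the results above was not tested.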

How the data were processed

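RNA sequencing of 12 libraries of AC16 cells was deposited as 2 tables by the authors. Poly(A) RNA from 325 ng (RIN of at least 8) was made into stranded libraries with 12 PCR cycles and read as single 75-base reads with 30 M planned, per the labels' protocols. The tools were STAR 2.7.11a, featureCounts 2.0.3, edgeR, Trim Galore 0.6.10 with cutadapt 4.3, and Picard 2.27.5, with build GRCh38.p13, per the submitters' processing notes, and GENCODE release 41 per the labels' design text, which names DESeq2. Whether counting used strand is not given in the sources used here, so overlapping genes cannot be told apart. The growth protocol in the labels names an RPMI medium and the design text DMEM/F-12.

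The authors deposited estimated counts per gene, unscaled (60649 identifiers, 36621 with a count, 25.49% of nonzero values not whole), and TPM per library. Counts were rounded to whole numbers. Of the identifiers, 60463 were matched in GENCODE release 44. 0 columns had no sample.

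R 4.3.3 with edgeR 4.0.16 (TMM, filterByExpr with 4 groups, robust quasi-likelihood F test, two-sided) was fitted to all 12 libraries with a mean per group, leaving 8 residual degrees of freedom. The 5 contrasts of this fit were each adjusted over 18119 genes by Benjamini-Hochberg. Standard errors are of the log2 fold change and were derived as its absolute value over the square root of the F statistic. Alternatives were DESeq2 1.42.0, limma 3.58.1 (voom, and log2 TPM with a pseudocount of 0.5 or 1), RLE and upper quartile scaling, no count filter or 1 CPM in 3 libraries, the 6 libraries alone, a replicate block, a gene length offset, a 1.5-fold threshold and each library left out. Counts for all groups were also simulated from the vehicle means, without the acute and repeat responses. Only genes with at least 5 CPM in vehicle were changed. The fit recovered 100 of 100 genes changed 1.5-fold and 65 of 100 changed 1.15-fold, and less abundant genes were not covered.

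The members and the 37 gene lists were chosen with earlier results of these data known, and no list was tested as a set. Genes were named by rule: the 15 largest called rises and falls with at least 5 CPM in the higher group and no overlap, every called classical interferon-stimulated gene, up to 6 called genes of each other list, and fixed genes of interferon signalling and cell identity, a few of which are not reported here. Intervals of the log2 fold change were built from the standard error derived from the F statistic, so they include the spread between libraries within groups. The floors at 0 counts (3 counts) cover counting error only.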

Additional observations from a re-analysis of the deposited data

How the results depend on the processing

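Against 1076 calls (549 higher, 527 lower), DESeq2, limma-voom, RLE and upper quartile scaling, both other count filters and the 6 libraries alone gave 909 to 1245. The gene length offset gave 178 (107 and 71), log2(TPM + 0.5) 120 (77 and 43), log2(TPM + 1) 118 (76 and 42) and the test against a 1.5-fold change 7 (6 and 1). Leaving out 1 library gave 624 to 942 calls, 341 to 466 higher and 283 to 476 lower. Vehicle library 1 took it to 624, recovery library 2 to 707 and recovery library 3 to 716, with fewer samples in the fit. Interferon-stimulated genes called higher numbered 20 with the length offset and 18 with either TPM setting. Lower calls among them numbered 1 without a count filter, 1 with the stricter filter, 1 with the replicate block and 0 to 2 with a library left out (2 without vehicle library 3). The mitochondrial share differed by -0.27 percentage points on TPM. Of 180 called genes named or considered for naming, 84 kept their call with the offset, 91 lost it and 5 changed sign without a call. The cause was not tested. With the offset and with a TPM pseudocount of 0.5 and 1 the log2 fold changes were -0.062, -0.058 and -0.052 for APOL3, 0.59, 0.45 and 0.36 for LAMA3, 0.0083, 0.0089 and 0.0082 for ROR2, and 0.14, 0.13 and 0.13 for PDGFRA. PFKFB4 gave 0.0021 with the offset.

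Pairing of the samples by replicate number was not evident. Deviations from the group means correlated at 0.09, -0.28 and -0.08 over 11085 genes, and not every library correlated best with its own number. With 3 libraries per group these correlations constrain one another, so they cannot exclude pairing, which was not tested. With the replicate block 1125 genes were called (560 higher and 565 lower), and 3 of the 180 named calls were lost (NMI, JAK2 and WNT16). Depth limits what can be said of genes under 1 CPM, of which 0.841% were called.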

Other observations

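Most called genes were protein coding, 528 of those higher in recovery and 514 of those lower. Long noncoding RNAs numbered 11 among the higher and 6 among the lower calls, and processed pseudogenes 5 and 1. The latter share sequence with their parent genes, so the origin of their reads is uncertain.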
